A study of Mus musculus with 9 samples.

Results

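The genes described here are 10 that encode structural proteins of the basement membrane: the collagen IV chains Col4a1, Col4a2 and Col4a5, the related collagens Col15a1 and Col18a1, the laminin chains Lama4, Lama5, Lamb2 and Lamc1, and the linker protein nidogen 1 (Nid1). They are a list of gene names looked up in the 3 tables the authors deposited. All 10 were found, among 17093 genes present in at least 1 table, and all 10 passed the filter on low values in every comparison.

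A basement membrane is a thin sheet of matrix that surrounds each smooth muscle cell of an artery and underlies its endothelium. Collagen IV and laminin each assemble from 3 chains and form separate networks, which nidogen and the heparan sulfate proteoglycan perlecan (Hspg2) tie together. Integrins and dystroglycan on the cell surface bind the laminins, and focal adhesion kinase (FAK) is a cytoplasmic tyrosine kinase that signals from bound integrins. Smooth muscle cells of a healthy artery are contractile and coated by basement membrane, and after injury they can switch to a proliferative, matrix-remodelling state.

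RNA was sequenced from femoral arteries of C57BL/6 mice, using the media, which is the layer of smooth muscle, in 3 groups of 3 libraries. The inhibitor-treated group had wire injury 14 days earlier and received the FAK inhibitor VS-4718 by oral gavage over 2 weeks, in 2 daily doses, each of 50 mg/kg. The injured group was taken at the same 14 days after wire injury without the inhibitor, and the sham group was sham-operated. Per the labels' protocols, mice not given the inhibitor received citrate vehicle, fat and adventitia were dissected off, and the lumen was flushed with lysis reagent to strip endothelial and immune cells. The labels give neither age, sex nor how many animals each library stands for, and p-values here rest on the spread between libraries, which may be technical. The comparisons ask which transcripts differ with the inhibitor among injured arteries, with injury, and between inhibitor-treated and sham arteries.

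Depth and sample make-up bear on every value below. In this paragraph, rose and fell mean called by limma (Benjamini-Hochberg adjusted p under 0.05), and markers not counted may still differ. Of all genes, 17.6% were called higher and 18.5% lower in inhibitor-treated over injured arteries. The shares were 20.6% and 16.8% in injured over sham arteries, and 5.15% and 0.934% in inhibitor-treated over sham arteries. Some marker counts below are near these shares. The deposited normalised counts corresponded to between 14676891 and 21248740 reads per library. Of 12 contractile smooth muscle markers, 11 rose in inhibitor-treated over injured arteries and 11 fell in injured over sham arteries. Their summed level was 650723 to 662021 in inhibitor-treated, 174249 to 200845 in injured and 552488 to 734898 in sham libraries. Of 12 endothelial markers, 9 fell in inhibitor-treated over injured arteries and 9 rose in injured over sham arteries. Their sum was 33882 to 34827 in inhibitor-treated, 41287 to 54258 in injured and 27163 to 40766 in sham libraries. All 8 macrophage markers fell in inhibitor-treated over injured arteries and rose in injured over sham arteries, with sums of 5105 to 9064 in inhibitor-treated, 29915 to 44774 in injured and 3366 to 4581 in sham libraries. Of 10 adventitial fibroblast markers, 8 fell and 1 (Pi16) rose in inhibitor-treated over injured arteries. In injured over sham arteries 6 of them rose and 1 (again Pi16) fell. Their sum was 48682 to 51939 in inhibitor-treated, 108869 to 141101 in injured and 60752 to 74156 in sham libraries. Of 6 pericyte markers, 4 rose in inhibitor-treated over injured arteries and 3 fell in injured over sham arteries. Of 8 adipocyte markers, 7 fell and 1 rose in the first of these comparisons, and 2 rose and 1 fell in the second. Of 8 Schwann cell markers tested, 2 fell in the first and 5 rose in the second. No smooth muscle, endothelial, macrophage or fibroblast marker was at 0 in any library, although the protocol removes adventitia, endothelium and immune cells. Skeletal muscle markers summed to 521137 in injured replicate 2 and to at most 60756 in the other 8 libraries. Of 10 such markers, 2 fell in inhibitor-treated over injured arteries and 7 rose in injured over sham arteries. In the first, 8 were not called, but the median log2 fold change of all 10 was -3.42. In the second, 3 were not called and that median was 3.21. The sum of all 10 was 2349 to 36808 in inhibitor-treated, 31288 to 521137 in injured and 5006 to 29865 in sham libraries. Hepatocyte markers summed to 24283 in inhibitor-treated replicate 3 and to at most 134.8 elsewhere, and erythroid markers to 41224 to 91626 in inhibitor-treated, 1076 to 4085 in injured and 3524 to 6535 in sham libraries. Among these markers, inhibitor-treated over sham arteries showed the following calls: 4 of 10 adventitial fibroblast markers (Pi16, Clec3b, Ly6a and Cd34) fell, 2 of 8 macrophage markers and 4 of 6 erythroid markers rose, and limma called 0 of the smooth muscle, endothelial, pericyte, adipocyte and Schwann cell markers. The part of these cell types in the results was not tested. In such bulk RNA, fewer cells of a type and less RNA per cell cannot be told apart.

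Injury was accompanied by lower transcripts of 4 basement membrane chains and higher Nid1, and the inhibitor-treated arteries differed from the injured ones in the opposite direction for the same 5 genes. In inhibitor-treated over injured arteries, Col4a5, Col18a1, Lama5 and Lamb2 rose and Nid1 fell (limma, Benjamini-Hochberg adjusted p under 0.05 over all 16901 genes tested). These 5 of 10 stand beside 36.1% of all genes called in that comparison, with 17.6% higher and 18.5% lower; the same 5 had groups that did not overlap, beside 51.6% of all genes. In injured over sham arteries, Col4a5, Col18a1, Lama5 and Lamb2 fell and Nid1 rose, again 5 of 10, beside 37.3% of 16278 genes, with 20.6% higher and 16.8% lower; the same 5 did not overlap, beside 51.3% of all genes. In inhibitor-treated over sham arteries, 0 of 10 were called by limma, beside 6.08% of 16166 genes, with 5.15% higher and 0.934% lower. Unadjusted p was under 0.05 for 2 genes in that last comparison, Col4a1 and Col4a2, and the count was also 0 with edgeR and DESeq2 on the recovered reads. With 10 genes, these counts are near the shares of all genes and are not read as particular to the basement membrane. The first 2 comparisons share the injured libraries, so their opposite signs are not independent of each other. The median log2 fold change of the 10 genes was 0.35 in inhibitor-treated over injured arteries, against 0.0061 for all genes. It was -0.39 in injured over sham arteries, against -0.0026, and 0.06 in inhibitor-treated over sham arteries, against -0.0073.

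**Figure D1:**
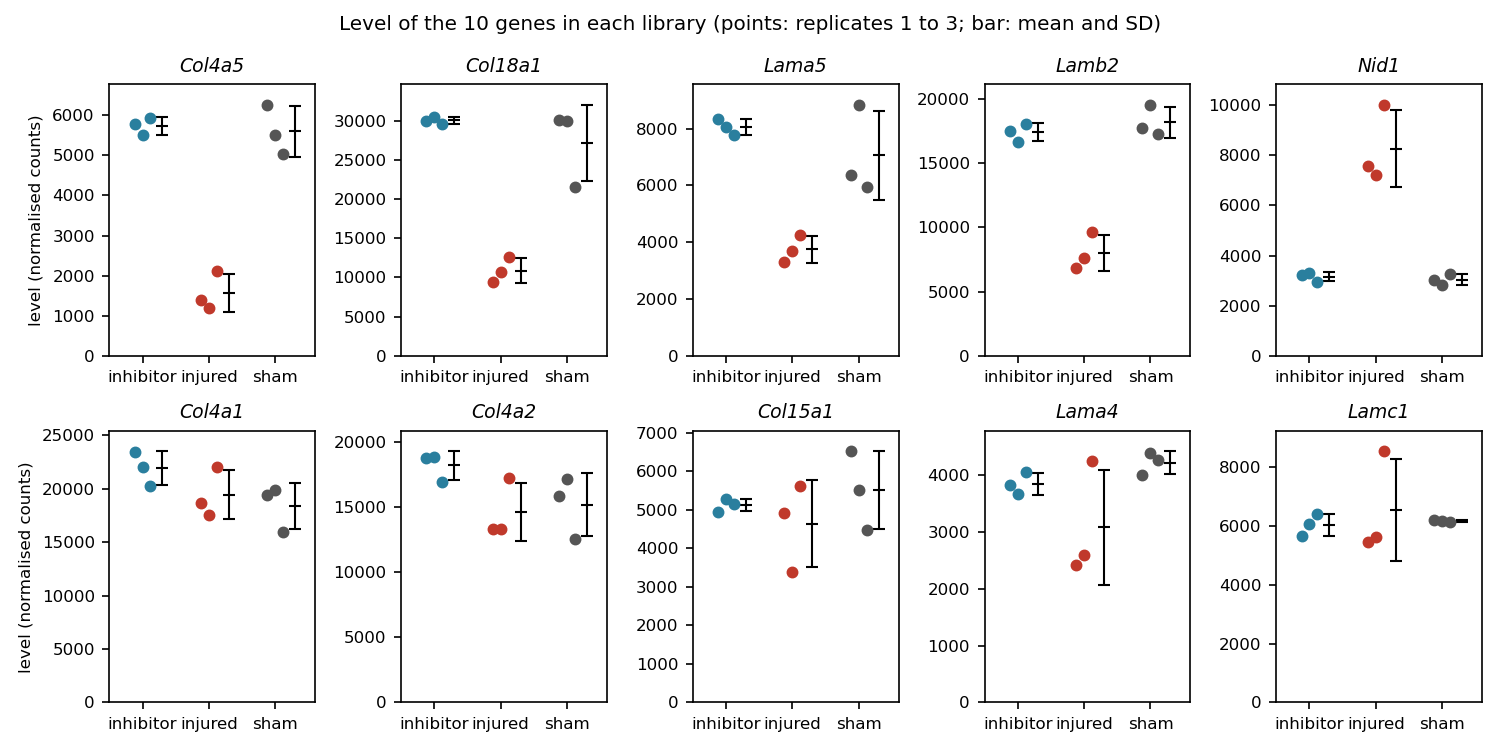
Level of each of the 10 genes in each library, as normalised counts on 1 scale over the 9 libraries (vertical axes from 0), with inhibitor-treated, injured and sham groups from left to right; points are replicates 1 to 3 and the bar beside them is the mean and SD. In the upper row the injured libraries lie apart from the other 6, below them for Col4a5, Col18a1, Lama5 and Lamb2 and above them for Nid1, and in the lower row the groups overlap in both comparisons with the injured group.

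Promoter sequence is shown for the 5 genes called, to place each one and the motifs near its start. RefSeq promoter windows (GRCm38.p6), from 250 bases before to 50 bases after a start, were at hand for 8 of the 10 genes, with 2 windows for Col18a1. The runs below end at the base before the gene's first annotated base. Capitals mark matches, on either strand, to 3 motifs: the CCAAT box (CCAAT, or ATTGG on the other strand), the GC box bound by Sp-family factors (GGGCGG, or CCGCCC), and the site of TEAD factors (GGAATG, or its reverse complement).
Col4a5, chrX:141475169-141475384, plus strand: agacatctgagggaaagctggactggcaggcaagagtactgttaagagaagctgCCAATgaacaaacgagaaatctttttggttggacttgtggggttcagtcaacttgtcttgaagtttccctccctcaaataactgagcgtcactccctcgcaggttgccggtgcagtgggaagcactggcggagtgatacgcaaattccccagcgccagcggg
Col18a1, chr10:77166549-77166780, minus strand: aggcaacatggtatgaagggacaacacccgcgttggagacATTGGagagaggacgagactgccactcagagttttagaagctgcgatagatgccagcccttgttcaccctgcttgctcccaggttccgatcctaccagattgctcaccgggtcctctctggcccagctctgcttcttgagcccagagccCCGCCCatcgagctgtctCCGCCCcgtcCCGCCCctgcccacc
Lama5, chr2:180225860-180226109, minus strand: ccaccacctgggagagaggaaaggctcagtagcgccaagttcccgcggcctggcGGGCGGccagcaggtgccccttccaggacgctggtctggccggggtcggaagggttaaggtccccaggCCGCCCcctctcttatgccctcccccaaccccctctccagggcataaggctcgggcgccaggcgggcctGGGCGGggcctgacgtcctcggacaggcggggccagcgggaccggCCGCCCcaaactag
Lamb2, chr9:108479612-108479735, plus strand: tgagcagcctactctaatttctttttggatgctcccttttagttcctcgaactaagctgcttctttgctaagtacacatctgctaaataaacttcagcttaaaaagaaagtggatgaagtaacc
Nid1, chr13:13437352-13437550, plus strand: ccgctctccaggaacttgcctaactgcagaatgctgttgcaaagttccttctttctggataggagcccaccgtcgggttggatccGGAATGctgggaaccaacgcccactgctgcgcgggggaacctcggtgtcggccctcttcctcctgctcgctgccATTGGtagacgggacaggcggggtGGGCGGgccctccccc
No 2 of the capitalised matches in these runs overlap. Over the whole 300-base windows, the GC box was found in Col4a1, Col4a2, Col4a5, Lama5, Nid1 and the first window of Col18a1, and in 35.7% of the 32851 RefSeq windows of all genes. A CCAAT box was found in Col4a1, Col4a2, Col4a5, Nid1 and the first window of Col18a1, and in 37.4% of all windows. GGAATG was found in Nid1 and in the second window of Col18a1, and in 14.7% of all windows. Neither the CArG box of serum response factor (1.63% of all windows) nor the AP-1 site TGANTCA (7.81%) was found in a window of the 8 genes. The windows of Lamb2 and Col15a1 held none of the 5 motifs, which says only that these letters are not in these windows.

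Col4a1 and Col4a2 encode the chains of the most widespread collagen IV, which pairs the product of Col4a1 with that of Col4a2. The genes lie head to head on chromosome 8, Col4a1 at chr8:11198423-11312826 on the minus strand and Col4a2 at chr8:11312805-11449287 on the plus strand, and their annotated 5′ ends overlap by 22 bases. Col4a1 levels (normalised counts) were 23445, 22070.05 and 20294 in inhibitor-treated libraries, 18696, 17562 and 21986 in injured libraries, and 19409, 19852 and 15902 in sham libraries. Col4a2 levels were 18793, 18853 and 16916 in inhibitor-treated libraries, 13295, 13316 and 17194 in injured libraries, and 15857, 17183 and 12531 in sham libraries. For both genes the injured libraries overlapped each other group, while every inhibitor-treated Col4a1 library lay above every sham library. Col4a2 had an inhibitor-treated replicate 3 just below sham replicate 2 on this common scale, and did not overlap on the scale of that comparison's own table, beside 27.9% of all genes whose groups do not overlap there.

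Neither of these chains was called in any comparison. In inhibitor-treated over injured arteries the log2 fold change was 0.18 for Col4a1 (95% interval -0.12 to 0.49, limma adjusted p = 0.304) and 0.33 for Col4a2 (0.01 to 0.65, limma adjusted p = 0.101). Without injured replicate 3, Col4a2 passed at 0.45 (limma adjusted p = 0.00927), and with library weights Col4a1 passed at 0.32 (limma adjusted p = 0.00844) and Col4a2 at 0.46 (limma adjusted p = 0.00142). It was 0.07 in injured over sham arteries for Col4a1 (-0.31 to 0.45, limma adjusted p = 0.761) and -0.06 for Col4a2 (-0.47 to 0.35, limma adjusted p = 0.81). Those small values changed sign for Col4a1 without injured replicate 3 (-0.02) or sham replicate 3 (-0.03), and for Col4a2 without sham replicate 2 (0.03). In inhibitor-treated over sham arteries it was 0.27 for Col4a1 (0.03 to 0.51, limma adjusted p = 0.189) and 0.28 for Col4a2 (0.01 to 0.55, limma adjusted p = 0.221). The within-library log2 ratio of Col4a1 to Col4a2 differed by -0.15 in inhibitor-treated over injured arteries and by 0.13 in injured over sham arteries. Both differences were small but without overlap (exact permutation p = 0.1 for each, adjusted 0.18). Between inhibitor-treated and sham arteries that ratio differed by -0.01, with overlap.

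Col4a5, at chrX:141475385-141689234 on the plus strand, encodes a chain that assembles with the products of Col4a3 and Col4a4 or with that of Col4a6, the form known in smooth muscle. Its level was 5772, 5502 and 5943 in inhibitor-treated libraries, 1395, 1207 and 2117 in injured libraries, and 6266, 5496 and 5028 in sham libraries. The highest injured library was far below the lowest of the other 6, and inhibitor-treated and sham libraries overlapped. It rose in inhibitor-treated over injured arteries, by a log2 fold change of 1.91 ± 0.20 (SE, a 3.76-fold difference, limma adjusted p = 0.000461). It fell in injured over sham arteries, with a log2 fold change of -1.87 ± 0.20 (SE, a fold of 0.273, limma adjusted p = 0.000213). Between inhibitor-treated and sham arteries the difference was 0.05 (95% interval -0.15 to 0.26, limma adjusted p = 0.776), and it was -0.02 without sham replicate 3.

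The partner chains of Col4a5 moved the same way. Col4a6 starts 1308 bases from Col4a5 on the opposite strand, and Col4a3 and Col4a4 form another such pair on chromosome 1 with 71 bases between them. Col4a6 levels were 3766, 3688 and 4244 in inhibitor-treated libraries, 293.5, 241.8 and 402.8 in injured libraries, and 4429.9, 4475 and 4207 in sham libraries. It rose by 3.67 ± 0.18 in inhibitor-treated over injured arteries (limma adjusted p = 4.38e-05) and its log2 fold change was -3.84 ± 0.18 in injured over sham arteries (limma adjusted p = 1.01e-05). Col4a3 rose by 2.14 ± 0.42 and Col4a4 by 1.37 ± 0.19 in inhibitor-treated over injured arteries, with values of -2.33 ± 0.38 and -1.63 ± 0.18 in injured over sham arteries (limma adjusted p at most 0.00665 in each). None of the 3 was called between inhibitor-treated and sham arteries.

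Shares of the chains per kilobase of transcript describe the collagen IV mixture. Col4a5 made up 11.4 ± 0.861% of the summed level of the 6 collagen IV chains in inhibitor-treated libraries, 4.3 ± 0.682% in injured libraries and 12.7 ± 1.03% in sham libraries (SD, n = 3 each). Col4a6 made up 7.65 ± 0.932% in inhibitor-treated, 0.843 ± 0.107% in injured and 9.79 ± 0.88% in sham libraries. Col4a1 was the most abundant chain per kilobase in every library, with 43.1 ± 1.14% in inhibitor-treated, 53.3 ± 1.45% in injured and 41.1 ± 0.0517% in sham libraries. The shares of Col4a6, Col4a3 and Col4a4 were lower in every inhibitor-treated than in every sham library, and that of Col4a1 was higher. For Col4a5 and Col4a2 these groups overlapped, and differences in shares were not tested. The within-library log2 ratio of Col4a1 to Col4a5 was 1.73 lower in inhibitor-treated than in injured libraries and 1.95 higher in injured than in sham libraries, with no overlap in either comparison. For each the exact permutation p was 0.1, the smallest that 3 against 3 libraries allow, and 0.18 after adjustment over the 18 ratio tests (6 ratios in 3 comparisons, two-sided). Between inhibitor-treated and sham libraries the Col4a1 to Col4a5 ratio differed by 0.22, with overlap (exact permutation p = 0.2, adjusted 0.24).

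**Figure D2:**
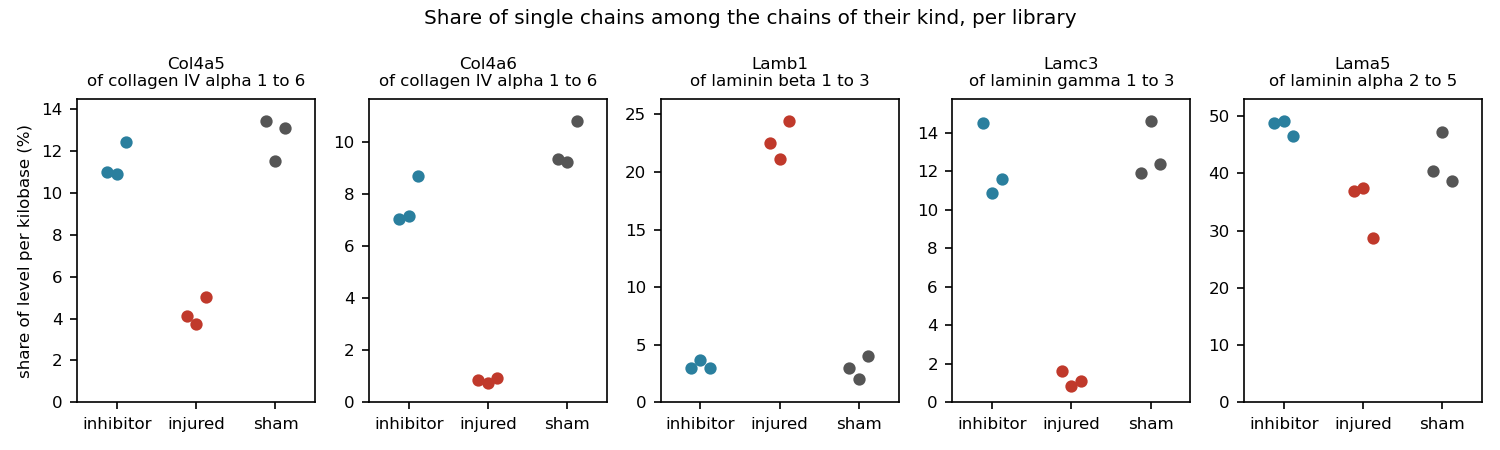
Share of a chain in the summed level per kilobase of the chains of its kind (percent, vertical axes from 0), per library, with inhibitor-treated, injured and sham groups from left to right; each point is 1 library. The injured libraries lie below the other 6 for Col4a5, Col4a6, Lamc3 and Lama5 and above them for Lamb1, whose share was 21.1 to 24.4% in injured and at most 4.07% in other libraries.

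Col15a1 and Col18a1 encode the multiplexins, collagens with interrupted triple helices that carry sugar chains and sit in or beside basement membranes. The C-terminal fragment of the Col18a1 product is endostatin, known for restraining endothelial cells. Col18a1, at chr10:77052178-77166548 on the minus strand, had levels of 29967, 30515 and 29593 in inhibitor-treated libraries, 9379, 10692 and 12557 in injured libraries, and 30038, 29957 and 21603 in sham libraries. All injured libraries were below all others, and sham replicate 3 was the lowest of the other 6. Col18a1 rose in inhibitor-treated over injured arteries by 1.48 ± 0.13 (SE, log2, a 2.79-fold difference, limma adjusted p = 0.00026). It fell in injured over sham arteries, with a log2 fold change of -1.32 ± 0.19 (a fold of 0.4, limma adjusted p = 0.000884). Between inhibitor-treated and sham arteries the difference was 0.17 (95% interval -0.13 to 0.47, limma adjusted p = 0.506).

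Col15a1, at chr4:47208161-47313167 on the plus strand, had levels of 4949, 5283 and 5141 in inhibitor-treated libraries, 4907, 3391 and 5610.4 in injured libraries, and 6514, 5521 and 4479.8 in sham libraries. The 3 groups overlapped, and no comparison called it with equal library weights. Its log2 fold change was 0.18 in inhibitor-treated over injured arteries (95% interval -0.25 to 0.61, limma adjusted p = 0.47), and -0.03 without injured replicate 2. The value was -0.27 in injured over sham arteries (-0.75 to 0.21, limma adjusted p = 0.348) and -0.08 in inhibitor-treated over sham arteries (-0.36 to 0.21, limma adjusted p = 0.771), where it was 0.05 without sham replicate 1. With library weights it passed in the first 2 comparisons, at 0.55 (limma adjusted p = 0.00505) and -0.66 (limma adjusted p = 0.0057). The within-library log2 ratio of Col15a1 to Col18a1 was 1.30 lower in inhibitor-treated than in injured libraries and 1.05 higher in injured than in sham libraries, without overlap (exact permutation p = 0.1, adjusted 0.18). It was also 0.25 lower in inhibitor-treated than in sham libraries, again without overlap (exact permutation p = 0.1, adjusted 0.18).

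Lama4 and Lama5 encode laminin alpha chains found in blood vessels, and the alpha chain carries the main integrin-binding domain of a laminin. Lama5, at chr2:180176373-180225859 on the minus strand, had levels of 8352, 8061 and 7762 in inhibitor-treated libraries, 3303, 3685 and 4262 in injured libraries, and 6378, 8845 and 5951 in sham libraries. The injured libraries were below all others, and the sham libraries spread around the inhibitor-treated ones. Lama5 rose by 1.11 ± 0.11 in inhibitor-treated over injured arteries (SE, log2, a 2.16-fold difference, limma adjusted p = 0.00044). It fell in injured over sham arteries, with a log2 fold change of -0.90 ± 0.17 (a fold of 0.534, limma adjusted p = 0.004). Against sham, inhibitor-treated arteries differed by 0.22 (95% interval -0.09 to 0.54, limma adjusted p = 0.393). Without sham replicate 2, the highest sham library, that difference was 0.39 and passed (limma adjusted p = 0.0388).

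Lama4, at chr10:38965515-39110188 on the plus strand, had levels of 3817, 3670.1 and 4049.55 in inhibitor-treated libraries, 2415, 2589.7 and 4241 in injured libraries, and 3995, 4394 and 4264 in sham libraries. Injured replicates 1 and 2 were below every other library, and injured replicate 3 lay among the sham libraries. The gene was not called with all libraries, at 0.37 in inhibitor-treated over injured arteries (95% interval -0.12 to 0.86, limma adjusted p = 0.202) and -0.51 in injured over sham arteries (-0.97 to -0.04, limma adjusted p = 0.0828). Without injured replicate 3 both passed, at 0.63 (limma adjusted p = 0.00189) and -0.76 (limma adjusted p = 0.000804), and with library weights at 0.54 (limma adjusted p = 0.0021) and -0.69 (limma adjusted p = 0.000594). The second also passed in a fit of all 9 libraries (-0.50, limma adjusted p = 0.0468). In inhibitor-treated over sham arteries the value was -0.12 (-0.28 to 0.04, limma adjusted p = 0.368). The Lama4 to Lama5 log2 ratio was 0.75 lower in inhibitor-treated than in injured libraries, without overlap (exact permutation p = 0.1, adjusted 0.18), and 0.40 higher in injured than in sham libraries, with overlap (exact permutation p = 0.2, adjusted 0.24).

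Lamb2 encodes the beta chain typical of mature vessel wall and muscle laminins, where Lamb1 encodes the alternative beta chain. Lamb2, at chr9:108479736-108490530 on the plus strand, had levels of 17533, 16632 and 18017 in inhibitor-treated libraries, 6878, 7637 and 9608 in injured libraries, and 17762, 19563 and 17267 in sham libraries. The injured libraries were below all others, and the inhibitor-treated and sham libraries overlapped. Lamb2 rose in inhibitor-treated over injured arteries by 1.13 ± 0.14 (SE, log2, a 2.19-fold difference, limma adjusted p = 0.000946). It fell in injured over sham arteries, with a log2 fold change of -1.20 ± 0.16 (a fold of 0.436, limma adjusted p = 0.000589). Against sham, inhibitor-treated arteries differed by -0.05 (95% interval -0.23 to 0.13, limma adjusted p = 0.75).

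Lamb1 moved opposite to Lamb2. Its levels were 559.1, 650.4 and 568.9 in inhibitor-treated libraries, 2061, 2109 and 3194 in injured libraries, and 554.7, 416.2 and 752.5 in sham libraries. Lamb1 fell in inhibitor-treated over injured arteries (log2 fold change -2.02 ± 0.18, limma adjusted p = 0.000259) and rose in injured over sham arteries (2.10 ± 0.24, limma adjusted p = 0.000283). Lamb2 was still the main beta chain per kilobase in each library, at 96.7 ± 0.396% of the 3 beta chains in inhibitor-treated, 77.1 ± 1.56% in injured and 96.9 ± 1.03% in sham libraries. The within-library log2 ratio of Lamb1 to Lamb2 was 3.15 lower in inhibitor-treated than in injured libraries and 3.29 higher in injured than in sham libraries, without overlap (exact permutation p = 0.1, adjusted 0.18). That was the largest difference among the 6 ratios in both comparisons.

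Lamc1 encodes the gamma chain found in most laminins. The gene, at chr1:153218922-153332786 on the minus strand, had levels of 5655, 6054 and 6416 in inhibitor-treated libraries, 5463, 5613 and 8550.4 in injured libraries, and 6206, 6179 and 6151 in sham libraries. Injured replicates 1 and 2 were below every other library and injured replicate 3 was above every other one. No comparison called it: the log2 fold change was -0.08 in inhibitor-treated over injured arteries (95% interval -0.50 to 0.34, limma adjusted p = 0.745), and 0.13 without injured replicate 3. The value was 0.04 in injured over sham arteries (-0.36 to 0.45, limma adjusted p = 0.868), and -0.16 without injured replicate 3. In inhibitor-treated over sham arteries it was -0.02 (-0.18 to 0.14, limma adjusted p = 0.884), and 0.03 without inhibitor-treated replicate 1. Another gamma chain gene, Lamc3, rose by 3.43 ± 0.27 in inhibitor-treated over injured arteries (limma adjusted p = 0.000144) and had a log2 fold change of -3.56 ± 0.26 in injured over sham arteries (limma adjusted p = 3.55e-05). It made up 12.3 ± 1.91% of the gamma chains per kilobase in inhibitor-treated, 1.21 ± 0.381% in injured and 12.9 ± 1.46% in sham libraries.

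Nid1 was the member that moved the other way. Nid1, at chr13:13437551-13512269 on the plus strand, had levels of 3229, 3298 and 2949 in inhibitor-treated libraries, 7572, 7203 and 10023 in injured libraries, and 3035, 2831 and 3255 in sham libraries. The lowest injured library was above all 6 others, and inhibitor-treated and sham libraries overlapped. Nid1 fell in inhibitor-treated over injured arteries, with a log2 fold change of -1.37 ± 0.14 (SE, a fold of 0.387, limma adjusted p = 0.000452). It rose in injured over sham arteries by 1.42 ± 0.15 (a 2.68-fold difference, limma adjusted p = 0.000176). Against sham, inhibitor-treated arteries differed by 0.07 (95% interval -0.11 to 0.25, limma adjusted p = 0.673). Its paralogue Nid2 moved with it, at -1.73 ± 0.29 in inhibitor-treated over injured arteries (limma adjusted p = 0.00341) and 1.91 ± 0.28 in injured over sham arteries (limma adjusted p = 0.00107). The Nid1 to Nid2 ratio overlapped between groups in all 3 comparisons, and Nid1 held 92.4 ± 0.155% of nidogen per kilobase in inhibitor-treated, 90.2 ± 2.43% in injured and 93.0 ± 0.459% in sham libraries.

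**Figure D3:**
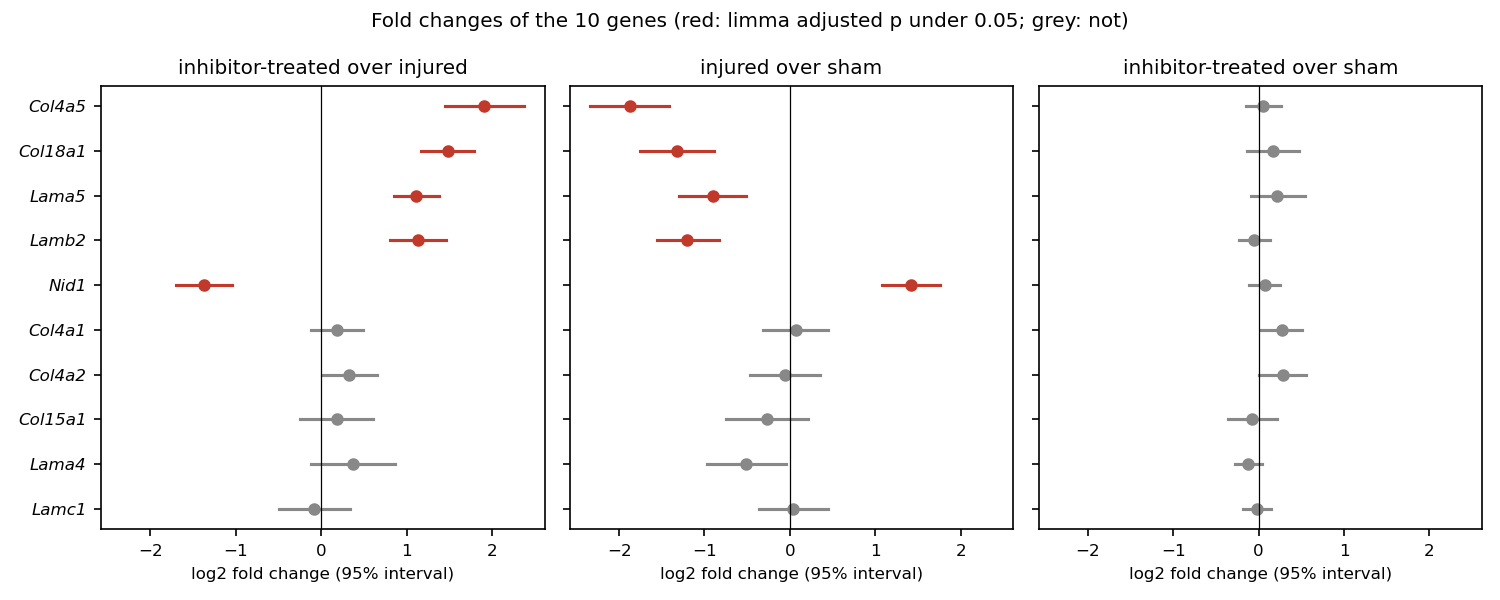
Log2 fold change of each gene (horizontal axis) in inhibitor-treated over injured, injured over sham and inhibitor-treated over sham arteries; points are limma estimates, lines are 95% intervals, and red marks an adjusted p under 0.05. The 5 upper genes lie away from 0 in the first 2 panels, and in the third panel all 10 lie between -0.12 and 0.28.

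Injured replicate 3 was the highest injured library for all 10 genes, and sham replicate 3 was the lowest sham library for 8 of them. The 5 calls in inhibitor-treated over injured arteries and the 5 in injured over sham arteries held when any 1 library was left out. They also held when inhibitor-treated replicate 3 (the highest of its group in hepatocyte markers), injured replicate 2 and sham replicate 3 (each the highest of its group in skeletal muscle markers) were left out together. Only libraries of the 2 groups compared enter each fit, so each of these fits held 2 against 2 libraries. With those libraries left out, Col4a5 gave 1.71, Col18a1 1.48, Lama5 1.13, Lamb2 1.07 and Nid1 -1.42 in inhibitor-treated over injured arteries (limma adjusted p between 0.013 and 0.0341). The values in injured over sham arteries were -1.78, -1.47, -1.01, -1.21 and 1.56 in the same order (limma adjusted p between 0.00136 and 0.0151). Inhibitor-treated replicate 2 was the highest of its group in skeletal muscle (36808) and erythroid markers (91626). With that library left out in place of replicate 3, an alternative chosen after seeing the data, the values in inhibitor-treated over injured arteries were 1.77, 1.46, 1.10, 1.13 and -1.50 (limma adjusted p between 0.00774 and 0.0213). Together the 10 genes took 0.625 ± 0.0123% of all normalised counts in inhibitor-treated, 0.47 ± 0.0967% in injured and 0.582 ± 0.065% in sham libraries.

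Per kilobase, Col18a1 had the highest mean level of the 10 genes in inhibitor-treated and sham arteries, at 5366 ± 82.9 normalised counts per kilobase in inhibitor-treated, 1944 ± 285 in injured and 4861 ± 866 in sham libraries. Col4a1 led in injured libraries, with 3316 ± 239 per kilobase in inhibitor-treated, 2935 ± 347 in injured and 2779.7 ± 327 in sham libraries. Lamb2 had 3090.1 ± 125 per kilobase in inhibitor-treated, 1429 ± 250.3 in injured and 3233 ± 215 in sham libraries. Col4a2 had 2819.7 ± 171 in inhibitor-treated, 2264 ± 348 in injured and 2355 ± 372 in sham libraries. Below Col18a1, Lamb2, Col4a1 and Col4a2 kept this order in each sham library, although the SDs of neighbouring genes overlapped. The order of Col4a1 and Lamb2 differed between inhibitor-treated libraries. The other 6 genes lay between 499.2 (Nid1) and 1064 (Col15a1) in sham libraries. Nid1 had the lowest mean of the 10 in inhibitor-treated and sham arteries (518.6 ± 30.3 in inhibitor-treated and 499.2 ± 34.8 in sham libraries). In injured arteries the lowest mean was that of Col4a5 (240.7 ± 73.5), and Nid1 stood at 1357 ± 252. Lama5 came next in sham (619.8 ± 137) and in injured libraries (329.3 ± 42.4), with overlapping SDs. Col4a5 was still below Lama5 in each injured library, whereas Nid1 was not below Lama5 in each sham library.

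Of 30 other basement membrane components, 28 were tested in the first 2 comparisons and 27 in the third. In inhibitor-treated over injured arteries 9 rose and 9 fell, beside 17.6% and 18.5% of all genes, with a median log2 fold change of -0.18 against 0.0061 for all genes. Besides Col4a6 and Lamc3, the largest were Npnt (nephronectin, a ligand of integrin alpha 8), which rose by 3.83 ± 0.10 (limma adjusted p = 6e-06), and Frem1, which fell (-3.71 ± 0.53, limma adjusted p = 0.00179). Injured over sham arteries had 10 that rose and 9 that fell, beside 20.6% and 16.8% of all genes, with a median of 0.04 against -0.0026. Npnt levels were 18886, 18915 and 20581 in inhibitor-treated libraries, 1439, 1227 and 1447 in injured libraries, and 24203, 20566 and 17065 in sham libraries. Its log2 fold change in injured over sham arteries was -3.91 ± 0.15 (limma adjusted p = 7e-06), and Frem1 rose there by 3.03 ± 0.54 (limma adjusted p = 0.00265), with a level of at least 36.98 in each injured library and at most 7.62 in each sham library. Perlecan (Hspg2), named here after its values were seen, rose by 0.87 ± 0.11 in inhibitor-treated over injured arteries (limma adjusted p = 0.00101) and was at -0.77 ± 0.15 in injured over sham arteries (limma adjusted p = 0.00373). In inhibitor-treated over sham arteries 0 rose and 2 fell, beside 5.15% and 0.934% of all genes: Fbln1 (fibulin 1, -0.54 ± 0.08, limma adjusted p = 0.00663) and Smoc2 (-0.37 ± 0.07, limma adjusted p = 0.0204). Fbln1 missed the threshold without inhibitor-treated replicate 3 and sham replicate 3 (-0.47, limma adjusted p = 0.0548) and without inhibitor-treated replicate 2 and sham replicate 3 (-0.45, limma adjusted p = 0.0514). Beside these 2 genes, 4 of 10 adventitial fibroblast markers fell in the same comparison. Smoc2 missed the threshold when any inhibitor-treated library or sham replicate 1 was left out (-0.38 to -0.32, limma adjusted p 0.0594 to 0.0824). The same held in a fit of all 9 libraries (-0.38, limma adjusted p = 0.178) and with scaling to ribosomal protein genes (-0.24, limma adjusted p = 0.11). Without sham replicate 3 and either inhibitor-treated replicate 3 or replicate 2, Smoc2 was at -0.38 and -0.37 (limma adjusted p = 0.0981 and 0.111).

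Of 17 receptors for laminin and collagen IV, 12 rose and 1 fell in inhibitor-treated over injured arteries, beside 17.6% and 18.5% of all genes, with a median of 0.75 against 0.0061 for all genes. The largest were Sgcd (delta-sarcoglycan of the dystrophin complex, 1.66 ± 0.28, limma adjusted p = 0.00368), Bcam (a receptor for laminin alpha 5, 1.56 ± 0.10, limma adjusted p = 7.55e-05), Itga7 (1.52 ± 0.08, limma adjusted p = 4.77e-05) and Itga3 (1.49 ± 0.08, limma adjusted p = 4.38e-05), the last 2 being alpha chains of laminin-binding integrins. Sgcd missed the threshold without inhibitor-treated replicate 3 and injured replicate 2 (1.35, limma adjusted p = 0.0647). Of these receptors, 2 rose and 12 fell in injured over sham arteries, beside 20.6% and 16.8% of all genes, with a median of -0.79 against -0.0026. Bcam levels were 23162, 22739.7 and 23779 in inhibitor-treated libraries, 7986, 8355 and 7397 in injured libraries, and 24419, 27664 and 22554 in sham libraries. In injured over sham arteries Bcam was at -1.66 ± 0.14, Itga7 at -1.52 ± 0.13 and Sgcd at -1.90 ± 0.26 (limma adjusted p at most 0.00071), and Itga6 rose by 2.00 ± 0.20 (limma adjusted p = 0.000139).

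Itga6, the alpha chain of further laminin receptors, was 1 of the 2 receptors called between inhibitor-treated and sham arteries (both higher, beside 5.15% of all genes), where its log2 fold change was 1.91 ± 0.25 (limma adjusted p = 0.00384). Its levels were 1049.8, 1263 and 2026 in inhibitor-treated libraries, 1218, 1532 and 1809 in injured libraries, and 373.5, 295.4 and 463.9 in sham libraries. Inhibitor-treated and injured libraries overlapped, with a difference of -0.11 (95% interval -0.70 to 0.49, limma adjusted p = 0.765). The second was Itga2, the alpha chain of a collagen-binding integrin, at 3.36 ± 0.56 (limma adjusted p = 0.0119). Its levels were low, at 54.1, 100.9 and 146.3 in inhibitor-treated libraries, 13.1, 39.8 and 79.0 in injured libraries, and 6.01, 19.9 and 4.36 in sham libraries. Itga2 was not called in injured over sham arteries (1.95, limma adjusted p = 0.0669). Nor was it in inhibitor-treated over injured arteries, with overlap (1.39, limma adjusted p = 0.134). Without inhibitor-treated replicate 2, inhibitor-treated replicate 3 or sham replicate 1, the difference between inhibitor-treated and sham arteries missed the threshold (3.30, 3.03 and 3.16, limma adjusted p 0.0503 to 0.0632). It also missed it without sham replicate 3 and either inhibitor-treated replicate 3 (2.64, limma adjusted p = 0.0874) or replicate 2 (2.91, limma adjusted p = 0.0661). Beside these 2 receptors, 2 of 8 macrophage and 4 of 6 erythroid markers rose in the same comparison.

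**Figure D4:**
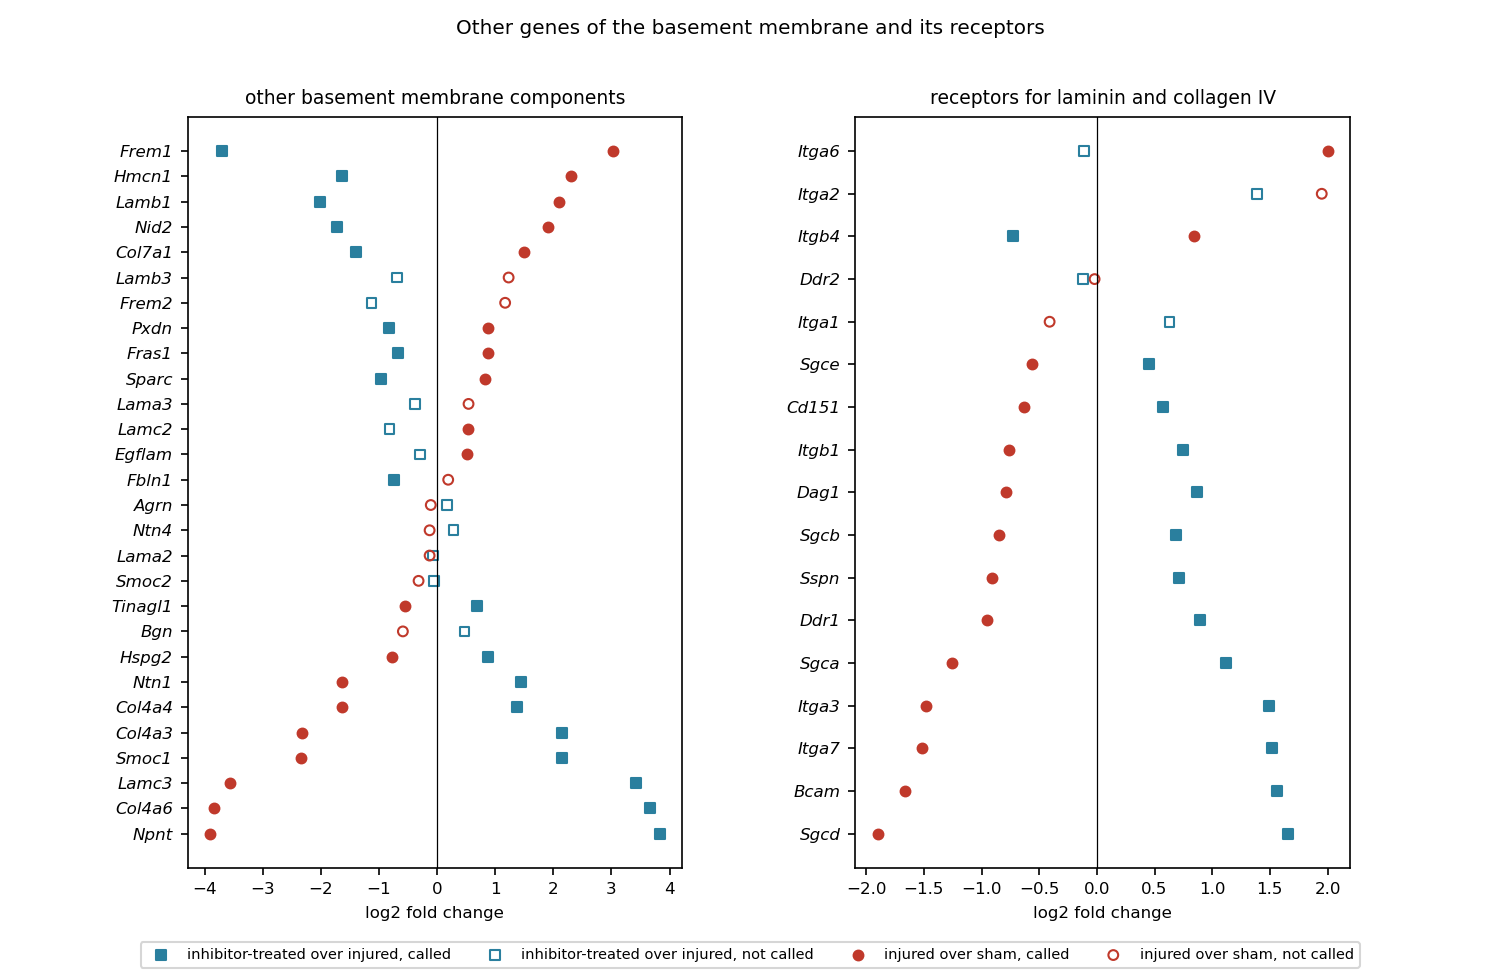
Log2 fold change (horizontal axis) of the other basement membrane components (left) and of receptors for laminin and collagen IV (right), in inhibitor-treated over injured arteries (blue squares) and injured over sham arteries (red circles); filled symbols have a limma adjusted p under 0.05, and genes are ordered by the second comparison. Both comparisons use the injured libraries, and Itga6 is called in the second (2.00) and not in the first (-0.11).

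A list of 18 collagen-processing genes held enzymes that modify collagen and proteins that fold or export it. Of these, 2 rose and 5 fell in inhibitor-treated over injured arteries, beside 17.6% and 18.5% of all genes, with a median of -0.14 against 0.0061. In injured over sham arteries 3 rose and 3 fell, beside 20.6% and 16.8%, with a median of -0.05 against -0.0026, and in inhibitor-treated over sham arteries limma called 0 of 18, beside 6.08%. P4ha3, a catalytic subunit of prolyl 4-hydroxylase, fell in inhibitor-treated over injured arteries (-3.76 ± 0.20, limma adjusted p = 4.38e-05) and rose in injured over sham arteries (5.16 ± 0.32, limma adjusted p = 1.83e-05). Its levels were 35.1, 55.0 and 44.5 in inhibitor-treated libraries, 637.1, 545.3 and 661.4 in injured libraries, and 18.0, 9.38 and 23.96 in sham libraries. P3h2, a prolyl 3-hydroxylase known to act on collagen IV, rose in inhibitor-treated over injured arteries (2.21 ± 0.21, limma adjusted p = 0.000341) and fell in injured over sham arteries (-2.12 ± 0.24, limma adjusted p = 0.000266). P3h2 levels were 931.2, 878.8 and 1014 in inhibitor-treated libraries, 150.3, 202.0 and 275.7 in injured libraries, and 1099, 862.9 and 718.7 in sham libraries. Colgalt2, a galactosyltransferase acting on collagen, fell in inhibitor-treated over injured arteries (-1.79 ± 0.23, limma adjusted p = 0.00118) and rose in injured over sham arteries (1.83 ± 0.33, limma adjusted p = 0.00312). Plod2, a lysyl hydroxylase, fell in inhibitor-treated over injured arteries (-0.54 ± 0.08, limma adjusted p = 0.00254), and missed the threshold with scaling to ribosomal protein genes (-0.10, limma adjusted p = 0.728). P3h4, a non-catalytic relative of the prolyl 3-hydroxylases, fell in injured over sham arteries (-0.75 ± 0.16, limma adjusted p = 0.0061).

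The genes whose levels were most like those of each member over the 9 libraries were found among 11672 genes with a mean level of at least 100, by Pearson correlation of log2 levels, as a description. Col18a1 was closest to Nov and to Dag1, the dystroglycan gene, both at 0.996. Lamb2 was closest to Calcoco1 and Arhgef17 (0.997 each), Col4a5 to Astn2 and Nalcn (0.995 each), and Lama5 to Prrc2a (0.991) and Gm17552 (0.989). Nid1 was closest to C1s1 (0.997) and to Itga11, an integrin alpha chain for fibrillar collagen (0.994). Genes that were not called had lower best matches: Lrig2 (0.955) and Tmem39a (0.935) for Col4a1, Sparcl1 (0.953) and Ptbp1 (0.932) for Col4a2, Pamr1 (0.953) and Kcnj15 (0.946) for Col15a1, Pfkfb2 (0.951) and Tbc1d32 (0.95) for Lamc1, and Copa (0.98) and Ints10 (0.978) for Lama4. Among the members, Col4a1 and Col4a2 correlated at 0.93 over the 9 libraries. Col4a5, Col18a1, Lama5 and Lamb2 correlated with each other at 0.934 or more, and Nid1 with these 4 at -0.932 to -0.893. All these points share the 3 groups, so they carry the group differences given above.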

How the data were processed

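RNA sequencing of 9 libraries (3 groups of 3) from mouse femoral artery media was used. The authors deposited 3 tables, 1 per pair of groups, with normalised read counts per gene, a signal that was scaled separately in each table as the values show. Per the file headers, the authors' tables also hold log2 fold changes and p-values, which were used only as an alternative. The genome build was mm10 (GRCm38), per the submitters' processing notes (the sources used here name no aligner, read counter, strand setting or test of the authors). Without strand, reads from overlapping antisense genes cannot be told apart.

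Whole reads were recovered from the low values (100% of values whole within 0.01 of a read). Levels printed for single libraries are these reads divided by 1 median-of-ratios factor per library, over 16750 genes present in at least 2 tables, and levels per kilobase use the longest protein-coding transcript of the GENCODE annotation of GRCm38, as do gene positions. Tests used each comparison's own table: log2(normalised count + 1) was fitted with limma 3.58.1 (R 4.3.3), with trended variance, two-sided, group as the only term, genes with a mean of at least 10, and Benjamini-Hochberg adjustment over all genes tested with a threshold of 0.05. On that log2(value + 1) scale the fold changes of low genes come out too small. Fold changes carry SE and levels SD. The fit was tested on simulated data. Replicate libraries differed by more than sampling noise (chi-square per degree of freedom 11.2 to 101).

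The 10 genes and all lists were chosen with earlier results of these data known. All 10 genes were described. Of each list, up to 4 called genes with the largest absolute log2 fold change per comparison were named, plus Lamb1 and Nid2, and for each of the 10 genes the 2 most correlated genes. Col4a3, Col4a4 and Hspg2 were named beyond that rule, after their values were seen. Alternatives were other pseudocounts, filters and scalings, a fit of all 9 libraries, library weights, a replicate block, leaving out libraries or genes of other tissues, and edgeR 4.0.16 and DESeq2 1.42.0 on the recovered reads.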

Additional observations from a re-analysis of the deposited data

How the results depend on the processing

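The 5 calls among the 10 genes in inhibitor-treated over injured arteries, and the 5 in injured over sham arteries, kept their direction and stayed under the threshold in all 22 alternatives of the first comparison and all 21 of the second. With library weights, 9 of the 10 were called in inhibitor-treated over injured arteries, among 10651 genes in all, and 7 of the 10 among 9621 genes in injured over sham arteries. With inhibitor-treated replicate 3, injured replicate 2 and sham replicate 3 left out, each where its group was compared, 3069 genes were called in inhibitor-treated over injured arteries. With inhibitor-treated replicate 2 left out in place of replicate 3, chosen after seeing the data, 2848 genes were called there and 509 in inhibitor-treated over sham arteries. Leaving out 1 library gave 518 to 822 genes, and 0 to 1 of the 10, in inhibitor-treated over sham arteries. Scaling to ribosomal protein genes moved the median of all genes to 0.434 in inhibitor-treated over injured arteries, -0.2882 in injured over sham arteries and 0.1191 in inhibitor-treated over sham arteries. It gave 3609 higher and 1299 lower genes, 2039 higher and 2588 lower, and 1333 higher and 33 lower, where the main values were 2976 and 3123, 3346 and 2730, and 832 and 151. Quantile normalisation gave 2998 higher and 2972 lower, 2842 higher and 3344 lower, and 617 higher and 220 lower genes.

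Reversals concerned genes that were not called, and their cause was not tested. Below, a fit without the 3 libraries lacks only those that belong to the groups compared. In inhibitor-treated over injured arteries they were Col4a1 (-0.16, quantile), Col15a1 (-0.01, quantile; -0.04 and -0.06 without the 3 libraries, with inhibitor-treated replicate 3 or replicate 2 among them; -0.03 to 0.33 leaving out 1 library) and Lamc1 (0.35, ribosomal; 0.08, weights; -0.20 to 0.13 leaving out 1 library). In injured over sham arteries they were Col4a1 (-0.22, ribosomal; -0.07, weights; -0.03 to 0.14 leaving out 1 library), Col4a2 (0.16, quantile; -0.20 to 0.03 leaving out 1 library) and Lamc1 (-0.24, ribosomal; -0.12, weights; -0.16 to 0.16 leaving out 1 library). In inhibitor-treated over sham arteries they were Col4a5 (-0.04 without the 3 libraries that include inhibitor-treated replicate 3; -0.02 to 0.14 leaving out 1 library), Col15a1 (0.05, ribosomal; -0.21 to 0.05 leaving out 1 library), Lama4 (0.01), Lamb2 (0.08) and Lamc1 (0.10), all 3 ribosomal, with Lamc1 at -0.07 to 0.03 leaving out 1 library. Leaving out 1 library, the log2 ratio of Lamb1 to Lamb2 there differed by -0.12 to 0.40 and that of Col4a1 to Col4a2 by -0.05 to 0.02.

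With the replicate number as a block, 5747, 5762 and 877 genes were called in the 3 comparisons, and 5, 5 and 0 of the 10. Same-numbered libraries of 2 groups deviated together with correlations of -0.076 to 0.192, so the numbers were not taken to pair the samples. With 3 libraries per group and this spread between libraries, differences inside the printed intervals could not be resolved.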
